A study of Homo sapiens with 9 samples.

Results

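HMGCS1, SQLE, INSIG1, SREBF1, SREBF2, SCAP and FASN, 7 genes of sterol and fatty acid synthesis in liver, were examined for binding of the SWI/SNF chromatin remodeling complex. Peaks were taken as belonging to a gene when the authors' nearest-gene column named it, which gave 33 of the 34575 ARID peaks, made up of 15 of 12852 for ARID1A, 3 of 8728 for ARID1B and 15 of 12995 for ARID2. The data are ChIP-seq of HepG2 cells, a human liver cancer line, with no treatment and no genetic change named in the labels. ARID1A, ARID1B and ARID2 are alternative subunits that define separate forms of SWI/SNF, and SNF5 (BAF47) is a core subunit. Each of the 4 antibodies had 2 replicates, and 1 input library was shared, for 9 libraries in all. Both replicates of an antibody were merged before peaks were called, so each subunit has 1 peak list, no replicate error can be given, and the values below are descriptions with no test. The lists hold no read counts, the sequencing depth behind them is unknown, and a gene without a peak is a gene without a called peak. The subunit, its antibody and its depth cannot be told apart.

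Cells make cholesterol from acetyl-CoA through the mevalonate pathway and fatty acids through acetyl-CoA and malonyl-CoA, and both pathways are active in hepatocytes. Their genes are switched on by the sterol regulatory element binding proteins (SREBPs), encoded by SREBF1 and SREBF2. When sterols are low, SCAP escorts the SREBPs from the endoplasmic reticulum to the Golgi for cleavage, and when sterols are high, INSIG1 holds SCAP and the SREBPs back.

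The sequences that the binding map turns on are the promoters of SREBF2, SCAP, HMGCS1 and INSIG1 and an upstream peak of SREBF1. Promoter windows came from RefSeq (GRCh38.p14), and each was placed by an exact match at a single position of its GRCh37 chromosome, the assembly also named hg19. The 250 bases before the start site are shown, 5′ to 3′ on the strand of the gene. Capitals mark complete matches, on either strand, to TCACCCCAC (core letters of the sterol regulatory element), CACGTG (E-box), CCAAT (the letters bound by NF-Y) or GGGCGG (GC box). SREBF2 was the promoter with the sterol element letters, SCAP had the E-box under peaks, HMGCS1 and SREBF2 had CCAAT under peaks, and INSIG1 had no peak at all.
SREBF2 promoter, chr22:42228859-42229108, plus strand: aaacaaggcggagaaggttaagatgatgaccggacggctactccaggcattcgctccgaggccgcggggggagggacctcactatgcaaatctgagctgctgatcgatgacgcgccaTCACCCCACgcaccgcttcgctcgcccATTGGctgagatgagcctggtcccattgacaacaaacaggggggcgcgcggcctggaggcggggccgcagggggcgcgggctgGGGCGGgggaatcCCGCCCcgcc
SCAP promoter, chr3:47517432-47517681, minus strand: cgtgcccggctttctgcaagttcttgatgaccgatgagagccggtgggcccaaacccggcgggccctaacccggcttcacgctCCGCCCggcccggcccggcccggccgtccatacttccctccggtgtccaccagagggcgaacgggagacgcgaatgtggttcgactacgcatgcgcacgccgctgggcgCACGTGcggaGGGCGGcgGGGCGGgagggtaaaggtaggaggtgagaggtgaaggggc
HMGCS1 promoter, chr5:43313515-43313764, minus strand: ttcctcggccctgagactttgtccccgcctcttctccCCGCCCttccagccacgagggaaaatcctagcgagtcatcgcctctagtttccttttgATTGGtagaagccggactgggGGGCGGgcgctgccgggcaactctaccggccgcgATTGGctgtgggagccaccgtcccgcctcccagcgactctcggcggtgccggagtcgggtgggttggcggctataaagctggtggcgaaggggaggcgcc
INSIG1 promoter, chr7:155089338-155089587, plus strand: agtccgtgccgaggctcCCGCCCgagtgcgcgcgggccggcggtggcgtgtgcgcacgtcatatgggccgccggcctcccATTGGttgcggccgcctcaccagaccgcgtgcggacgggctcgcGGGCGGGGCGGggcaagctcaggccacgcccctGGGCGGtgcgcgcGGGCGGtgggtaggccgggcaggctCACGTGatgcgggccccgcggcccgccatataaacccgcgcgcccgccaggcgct

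A further pair of sequences was read from GRCh37. The SREBF1 peak is shown because it holds the sterol element letters, which are in capitals and lie on the minus strand. The SCAP stretch is shown because it was the only place, among the 33 assigned peaks, where the same bases lay under a peak of each ARID.
SREBF1 upstream ARID1A peak, chr17:17743418-17743677, plus strand: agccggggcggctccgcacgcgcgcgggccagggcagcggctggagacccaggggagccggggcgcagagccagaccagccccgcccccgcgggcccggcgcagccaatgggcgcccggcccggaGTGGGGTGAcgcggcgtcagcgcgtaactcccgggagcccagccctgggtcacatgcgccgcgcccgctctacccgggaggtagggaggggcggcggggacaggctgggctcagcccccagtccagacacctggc
SCAP bases under all 3 ARIDs, chr3:47517495-47517533, plus strand: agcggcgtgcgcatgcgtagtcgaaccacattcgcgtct

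Across the 7 genes, 6 had at least 1 ARID peak, and INSIG1 had none. By the same assignment, 40.8% of 20133 protein-coding genes had an ARID peak. Names of Gencode v44 were matched as written. A gene named differently in the lists therefore counted as without a peak, so these shares may be too low. ARID1A peaks were assigned to 5 of the 7 genes (31.1% of all protein-coding genes), ARID2 peaks to 6 (27.7%) and ARID1B peaks to 3 (16.0%). SREBF1, SCAP and FASN had peaks of all 3 ARIDs, which was the case for 9.42% of protein-coding genes, and SCAP and FASN had all 3 in the promoter class, against 6.27%. An SNF5 peak lay within 5 kb of 6 of the 7 genes, against 52.7%. The protein-coding genes include genes that are silent in HepG2 cells, and expression was not analysed here.

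**Figure D1:**
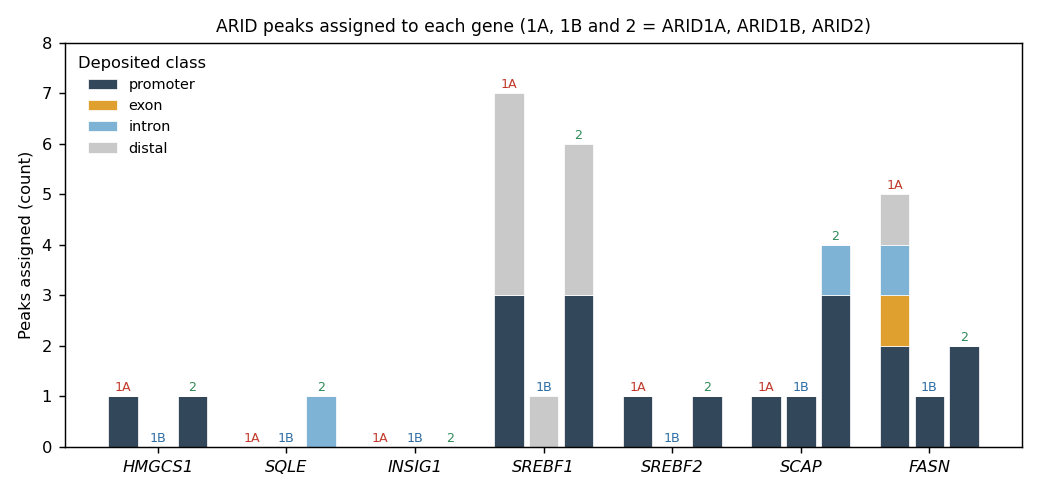
Number of ARID peaks assigned to each of the 7 genes (vertical axis, count), with 1 bar for each list (1A, ARID1A; 1B, ARID1B; 2, ARID2) coloured by the authors' feature class. SREBF1 had 14 of the 33 peaks and INSIG1 had 0.

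The peaks were unevenly spread over the genes. SREBF1 had 14 peaks, FASN 8, SCAP 6, HMGCS1 and SREBF2 2 each, and SQLE 1. Of the 12428 gene names with any ARID peak, of which 8220 were protein-coding, the median had 2 peaks. Among the 12428 names, 133 (1.07%) had as many as SREBF1 or more. For FASN the corresponding share was 4.96%, and for SCAP it was 9.84%. In Gencode v44, SREBF1 had 24 transcript starts, against 6 to 13 for the other genes. Whether the number of starts bears on the number of peaks was not tested. The peaks were not spread over subunits in the same way at each gene. SREBF1 had 7 ARID1A and 6 ARID2 peaks, FASN had 5 ARID1A and 2 ARID2 peaks, and SCAP had 1 ARID1A and 4 ARID2 peaks, whereas each of these genes had 1 ARID1B peak.

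By feature class, 20 of the 33 peaks were in promoters, 9 were distal, 3 were intronic and 1 was exonic. Among these peaks the promoter class reached a deposited distance of 983 bp, and a peak at 1000 bp was distal. The paper describes promoters as within 2 kb of a start, so its promoter shares are not comparable with those here. The promoter share was 60.6% (95% Wilson interval 43.7 to 75.3), and that of the full lists was 61.7%. The lists were mixed differently, since ARID1B gave 3 of these 33 peaks but 8728 of 34575 in all. By list, the promoter class held 8 of 15 ARID1A peaks (53.3%, 30.1 to 75.2, against 72.6% of the full list), 10 of 15 ARID2 peaks (66.7%, 41.7 to 84.8, against 67.0%) and 2 of 3 ARID1B peaks (66.7%, 20.8 to 93.9, against 37.9%). Of the 20 promoter peaks, 14 lay within 1 kb of the start of the canonical transcript of the gene, and 6 lay near other starts, inside SREBF1, SCAP and FASN. Peaks counted as shared had at least 1 bp in common with another ARID list, and these were 17 of 33 (51.5%, 35.2 to 67.5), against 45.5% in the full lists. SNF5 overlapped 24 of 33 peaks (72.7%, 55.8 to 84.9), against 67.6%. The intervals of these 3 pooled shares contain the shares of the full lists. They cover counting error only and treat peaks as independent, which peaks of the same gene or the same overlap are not. They therefore do not measure the spread between genes, and containing a share does not show likeness. SNF5 overlapped 17 of the 17 shared peaks, where the full lists had 89.1%, and 7 of the 16 peaks of a single ARID, where they had 49.7%.

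When touching peaks were joined across the lists, the 33 peaks formed 23 regions. ARID1A was alone in 8 of these, ARID2 in 7 and ARID1B in 1. ARID1A and ARID2 shared 5 regions, and all 3 ARIDs met in 2, at the SCAP and FASN promoters. No region paired ARID1B with only 1 other ARID. 

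**Figure D2:**
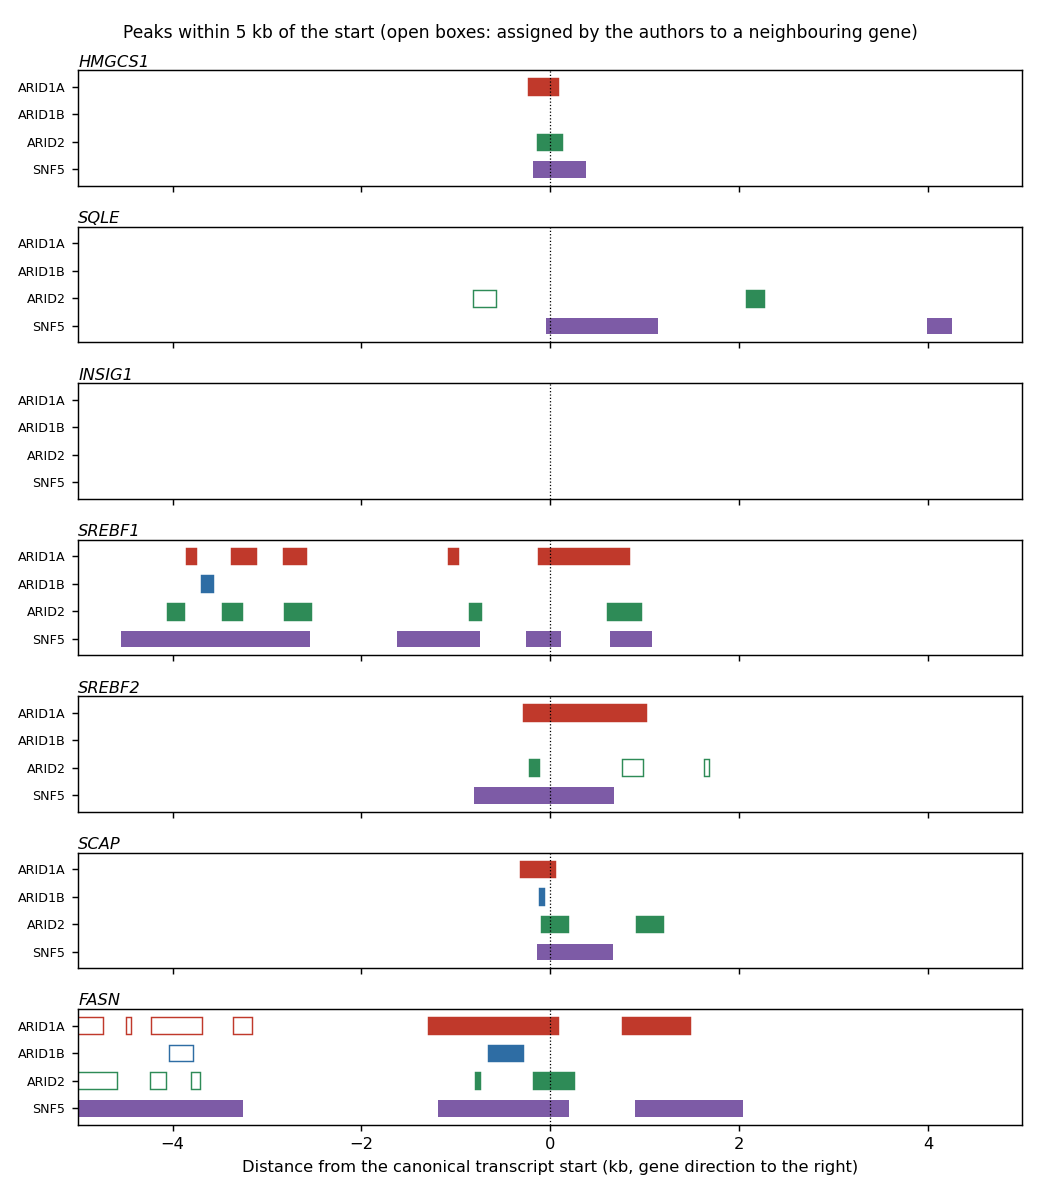
Peaks of each list (rows) around the start of the canonical transcript of each gene, with distance in kb on the horizontal axis and the direction of transcription to the right; open boxes are peaks the authors assigned to a neighbouring gene. An SNF5 peak covered the start of 6 genes, ARID1A and ARID2 peaks overlapped each other near the start of HMGCS1, SREBF1, SREBF2, SCAP and FASN, and the 10 kb around the INSIG1 start held no peak.

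HMGCS1 encodes the cytosolic HMG-CoA synthase, an early step of the mevalonate pathway. It had 1 ARID1A peak, 321 bp wide at chr5:43313432-43313752, and 1 ARID2 peak, 271 bp wide at chr5:43313390-43313660, both in the promoter class and over the first exon. They had 229 bp in common. The ARID2 peak lay within an SNF5 peak of 565 bp, and the ARID1A peak ran past its upstream edge. The score of that SNF5 peak, 26, was at least as high as that of 84.1% of SNF5 peaks. In the promoter shown above, 1 of the 2 CCAAT matches, at 100 to 96 bases before the start, lay under ARID1A, ARID2 and SNF5 together, and the other, at 155 to 151 bases before it, lay under ARID1A and SNF5. CCAAT was present in 34.6% of all RefSeq promoter windows of 300 bases. The nearest ARID1B peak was 274.9 kb away.

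SQLE encodes squalene epoxidase, which makes the first oxygenated sterol precursor. ARID2 was the only ARID with a peak assigned to it, 196 bp wide at chr8:126012816-126013011 in an intron, with its midpoint 2166 bp past the start. The start itself was covered by an SNF5 peak of 1191 bp, with a score of 16 that ranked at the 28.0 percentile of its list, and no ARID peak overlapped it. A second ARID2 peak, with its midpoint 700 bp upstream of the start, was assigned by the authors to RP11-6D1.3. The ARID2 peaks thus flanked the SNF5 peak, at gaps of 533 bp upstream and 925 bp downstream. The nearest ARID1A peak was 24.9 kb from the start, and the nearest ARID1B peak was 123.6 kb from it.

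SREBF1 encodes SREBP-1, the SREBP chiefly known for driving fatty acid synthesis, and its 14 peaks formed 11 regions in 3 places. The first place was the canonical start, where an ARID1A peak of 964 bp at chr17:17739471-17740434 was at least as wide as 96.5% of its list. It overlapped an ARID2 peak of 353 bp by 226 bp downstream of the start. It also reached across 2 separate SNF5 peaks with scores of 21 (63.6 percentile) and 15 (20.5 percentile). Single peaks of ARID2 (125 bp, midpoint 799 bp upstream) and ARID1A (109 bp, midpoint 1028 bp upstream) followed under another SNF5 peak, with a score of 23, and did not overlap each other.

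The second place was an upstream cluster with 7 peaks of the 3 ARIDs, whose midpoints lay between 2676 and 3972 bp before the SREBF1 start. All 7 overlapped 1 SNF5 peak of 1999 bp at chr17:17742846-17744844, with a score of 29 (90.7 percentile) and a width at the 94.8 percentile. ARID1A and ARID2 peaks overlapped in 2 pairs, by 229 and 110 bp. Farther upstream the subunits alternated without overlap. The ARID1B peak, 131 bp at chr17:17743869-17743999, lay 87 bp from an ARID2 peak on one side and 57 bp from an ARID1A peak on the other, and that ARID1A peak ended 26 bp before the next ARID2 peak. Thus the ARID1B peak counted as unshared in the overlap although all 3 ARIDs lay under the same SNF5 peak.

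The third place was the body of SREBF1, with peak midpoints between 92 and 986 bp from starts of shorter transcripts. An ARID1A peak of 148 bp, 13484 bp past the canonical start, and an ARID2 peak of 258 bp, 12416 bp past it, lay on either side of an SNF5 peak of 538 bp, at gaps of 130 and 196 bp. None of the 3 overlapped. A last ARID1A peak of 168 bp lay 24530 bp past the start, toward the end of the gene, with no SNF5 peak. The sterol element letters lay in the upstream cluster, at chr17:17743543-17743551, under ARID1A and SNF5, centred 3247 bp before the start. They were 16 bp short of the nearest ARID2 peak, inside the window of 300 bases centred on it. Such windows held TCACCCCAC at 69 of 12852 ARID1A peaks (0.537%) and at 57 of 12995 ARID2 peaks (0.439%).

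**Figure D3:**
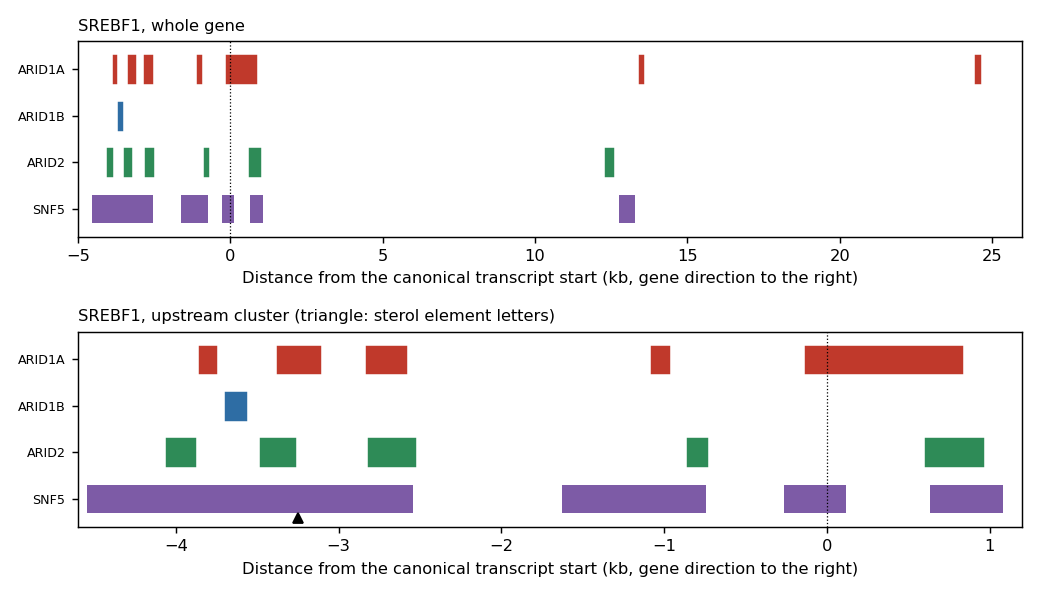
Peaks of the 3 ARIDs and SNF5 at SREBF1 over the whole gene (top) and in its upstream part (bottom), with distance from the canonical start in kb on the horizontal axis; the triangle marks the TCACCCCAC match. The 7 ARID peaks from 2676 to 3972 bp upstream all overlapped the SNF5 peak of 1999 bp, and the match lay under ARID1A and SNF5.

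SREBF2 encodes SREBP-2, the SREBP chiefly known for driving sterol synthesis, and had far fewer peaks than SREBF1. A single ARID1A peak of 1305 bp at chr22:42228820-42230124 covered the start and was at least as wide as 98.7% of the ARID1A list. A single ARID2 peak of 107 bp at chr22:42228886-42228992, at the 23.1 percentile of width in its list, lay wholly within it, just upstream of the start. Both overlapped an SNF5 peak of 1484 bp with a score of 23. The sterol element letters of the SREBF2 promoter, 133 to 125 bases before the start at chr22:42228976-42228984, lay under ARID1A, ARID2 and SNF5 together. They were present in 151 of 35116 RefSeq promoter windows (0.43%), and in none of the windows found for SCAP, HMGCS1, INSIG1 and SREBF1. No match says only that these letters are not in that window. The authors assigned 2 further ARID2 peaks, 868 and 1658 bp past the start, to RP5-821D11.7. The nearest ARID1B peak was 166.0 kb from the SREBF2 start.

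SCAP, the escort of the SREBPs, had its promoter under all 3 ARIDs. For ARID1B this rested on a narrow peak, with a width at the 14.0 percentile of its list. The ARID1A peak of 364 bp at chr3:47517385-47517748, the ARID1B peak of 53 bp at chr3:47517495-47517547 and the ARID2 peak of 291 bp at chr3:47517243-47517533 had 39 bp in common, the stretch printed above, which also lay under an SNF5 peak of 802 bp with a score of 26. The E-box 58 to 53 bases before the start lay under ARID1A, ARID2 and SNF5 and 5 bp outside the ARID1B peak. CACGTG was present in 7.26% of all RefSeq promoter windows. The other 3 SCAP peaks were of ARID2 alone. The first, of 282 bp, lay 1052 bp past the start and 249 bp from the SNF5 peak of the promoter. The others lay 32118 and 31483 bp into the gene, 381 and 221 bp wide, where an SNF5 peak with a score of 24 overlapped the first and ended 29 bp from the second. The second held the looser letters TCACNCCAC, which were found in the windows of 153 of 12995 ARID2 peaks (1.18%).

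INSIG1, which retains SCAP and the SREBPs in the endoplasmic reticulum, had no peak in any of the 4 lists. The nearest peaks to its start were 294.1 kb away for ARID1A, 322.2 kb for ARID1B, 323.0 kb for ARID2 and 293.6 kb for SNF5. Of protein-coding genes, 9.96% had no peak of the 4 lists within 250 kb of the start. The 250 kb limit was not planned beforehand and lies below the INSIG1 distances, so this share is a description. The INSIG1 promoter window held 1 E-box, at 55 to 50 bases before the start, 1 CCAAT match and 6 GC box matches, of which 2 overlap in sequence. GGGCGG was present in 45.0% of RefSeq promoter windows. Whether the INSIG1 region was covered by reads cannot be read from peak lists.

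FASN encodes fatty acid synthase, and its promoter was the other place where all 3 ARIDs met. An ARID1A peak of 1383 bp at chr17:80056027-80057409, at least as wide as 99.0% of its list, overlapped the ARID1B peak of 371 bp at chr17:80056406-80056776 along its whole length and 2 ARID2 peaks by 273 and 55 bp. The ARID1B peak lay between the 2 ARID2 peaks, at gaps of 106 and 79 bp, so that no base was under all 3 ARIDs, in contrast to SCAP. The narrower ARID2 peak, of 55 bp, was at the 7.57 percentile of width in its list. The whole group overlapped an SNF5 peak of 1389 bp with a score of 17, at the 35.8 percentile of its list. An E-box at chr17:80056472-80056477 lay under ARID1A, ARID1B and SNF5, and CACGTG was present in the windows of 457 of 8728 ARID1B peaks (5.24%).

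The other 4 FASN peaks were of ARID1A alone. A peak of 714 bp in an intron near the start was at least as wide as 92.2% of its list and overlapped an SNF5 peak, and 3 narrow peaks of 99, 59 and 151 bp at and just past the end of the gene, between 18758 and 20370 bp past the start, overlapped none. In addition, 8 peaks within 5 kb of FASN (4 ARID1A, 1 ARID1B and 3 ARID2) were assigned to the neighbouring gene CCDC57. All 8 overlapped an SNF5 peak of 2830 bp with a score of 23. Counting by distance therefore gave 16 ARID peaks for FASN in place of 8, whereas SREBF1 kept 14.

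The median peak width was 241 bp for ARID1A (218 bp in the full list), 258 bp for ARID2 (189 bp) and 131 bp for ARID1B (164 bp). Of the 33 peaks, 4 were wider than 90% of their list, all of ARID1A, at the starts of SREBF1, SREBF2 and FASN and in the FASN intron. The SNF5 list held 15 peaks within 5 kb of the 7 genes or over their ARID peaks, of which 6 covered a canonical start and 4 overlapped no ARID peak. Their median score was 23, against 19 for the list of 20718 peaks, and their median width was 884 bp, against 535 bp. The 15 were picked near genes or over ARID peaks, whereas the list also holds peaks far from both. Whether this choice accounts for the higher medians was not tested.

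**Figure D4:**
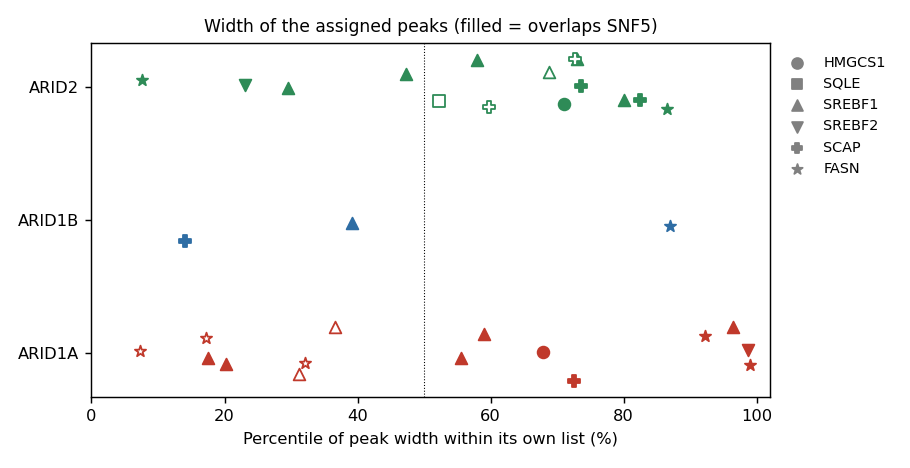
Width of each of the 33 assigned peaks as a percentile of its own list (horizontal axis, %), by list (rows) and gene (symbols), filled where the peak overlapped SNF5; vertical scatter within a row only separates the points. The widest were ARID1A peaks of FASN (99.0 and 92.2), SREBF2 (98.7) and SREBF1 (96.5).

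The rest of the pathway was counted over a list of 38 other genes. Of these, 33 (86.8%, 72.7 to 94.2) had an ARID peak assigned, against 40.8% of all protein-coding genes. ARID1A peaks were assigned to 24 (31.1% of protein-coding genes), ARID2 peaks to 27 (27.7%) and ARID1B peaks to 11 (16.0%), and 33 had an SNF5 peak within 5 kb (52.7%). For the assigned counts, MSMO1 and SC5D were also looked up under older names. This was not done for protein-coding genes at large, so the compared shares do not rest on the same name rule. By role, an ARID peak was assigned to 15 of 19 sterol synthesis enzymes, 3 of 3 genes of SREBP control, 4 of 4 genes of sterol uptake and transport and 11 of 12 genes of fatty acid synthesis. INSIG2, the paralog of INSIG1, had 7 peaks, of all 3 ARIDs. The promoter class held peaks of all 3 ARIDs at 4 of the 38 genes, against 6.27% of protein-coding genes, namely FDFT1 (squalene synthase), NPC1 (a lysosomal cholesterol transporter), STARD4 (a sterol carrier) and FADS1 (a fatty acid desaturase). INSIG2 is named here after its values were seen.

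Among the pathway genes with the most peaks, FDFT1 and MLXIPL had 10 each and NPC1 had 8, and no gene of the list reached the 14 of SREBF1. MLXIPL encodes ChREBP, the carbohydrate response factor, and 1 ARID1A and 1 ARID2 peak of its 10 were in the promoter class. ACAT2, FDPS, NSDHL, EBP and ME1 were the 5 genes with no ARID peak assigned. Counted by distance, ACAT2 and FDPS had ARID peaks and an SNF5 peak within 5 kb, and 35 of the 38 genes had an ARID peak within 5 kb. The share of all protein-coding genes with an ARID peak by this rule is not given here. The 35 therefore cannot be set against the share by assignment. Of the 119 peaks of the list, 66.4% (57.5 to 74.2) were in promoters, 48.7% (39.9 to 57.6) were shared and 65.5% (56.6 to 73.5) overlapped SNF5. The shares of the full lists were 61.7%, 45.5% and 67.6%. They lie within these intervals, which again treat peaks of the same gene or overlap as independent.

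As a check of the labelled cell type, 8 of 9 hepatocyte marker genes (all but TTR) had an ARID and an SNF5 peak within 5 kb, against 2 of 8 markers of blood, fibroblast, neural and muscle cells. A peak near a gene is not a measure of its expression.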

How the data were processed

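Per the study's methods and the submitters' processing notes, the authors mapped the reads to hg19 (single-end, Bowtie2), dropped duplicates, pooled the 2 replicates of an antibody and called broad peaks with MACS2, after which close peaks were joined and blacklisted ones dropped. The use of the input as a control is not given in the sources used here. The deposited ARID lists give boundaries and the distance to the nearest start (bp), with a feature class, the nearest Gencode gene, a label for overlap with other ARIDs and a chromatin state. The deposited SNF5 list also has a peak score, a whole number on a scale that is not stated, which the ARID lists lack.

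Libraries were grouped by the antibody in their titles. The genes, the pathway and marker lists and the motifs were chosen with earlier results of these data known, so nothing was tested. The genes named were the 7 members and, of the pathway list, those with promoter peaks of all 3 ARIDs, those with no ARID peak and the 5 with the most peaks. Some genes that this rule names are not reported here. Starts are printed counted from 1. Distances in the text run from the peak midpoint to the start of the canonical transcript of Gencode v44 lifted to GRCh37, unless given as gaps. The deposited distances were within 100 bp of such a midpoint distance to a v44 start for 25 of the 33 peaks. Motifs were searched on both strands in windows of 300 bases, centred on peaks or running from 250 bases before the start. None of these motifs contains another, apart from the looser sterol form, which includes the exact one. SQLE and FASN had no entry in the promoter table. Intervals are Wilson 95% intervals. Python 3.11.15, pandas 2.3.3, numpy 2.4.6, scipy 1.17.1 and pysam 0.24.0 were used, and the overlap and motif code was tested on simulated data. The chromatin state was not used, because reciprocally overlapping peaks of 2 ARID lists had the same state in only 37.2% to 51.2% of pairs.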

Additional observations from a re-analysis of the deposited data

How the results depend on the processing

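Over 42 alternatives to 13 counts and shares, 32 moved a share by no more than its interval or a count by no more than 1.5 times, and 10 moved further. Some of the 32 could not move. All 33 peaks lay within 5000 bp of a start, so keeping only such peaks removed none. The deposited label for overlap matched the overlap found here for all 33. The 32 therefore overstate how stable the results are. Requiring an overlap of 50% of both peaks lowered the share of the 33 peaks shared with another ARID to 12.1% and the share overlapping SNF5 to 12.1%, and allowing a gap of 1000 bp raised them to 78.8% and 87.9%. The promoter share was 36.4% with a distance of at most 500 bp, 100% with 5000 bp and 81.8% of 22 when peaks of a list within 1000 bp of each other were joined. Among peaks at or above the median width of their list, ARID1B peaks were assigned to 1 of the 7 genes, FASN, and to 7 of the 38 pathway genes. The ARID1B peaks of SCAP and SREBF1 were narrower than that median, so SCAP no longer had all 3 ARIDs at its promoter. Within 50000 bp of the genes there were 23 SNF5 peaks in place of 15. Each alternative changes the peaks or distances counted, and the cause of the size of the shifts was not tested. Shares of the full lists or of all protein-coding genes under these settings are not given. The shifts therefore cannot be read as particular to these genes. No replicate could be left out, since each list was called on merged replicates. No paired analysis was possible because no result comes from a test and the lists carry no replicate numbers. Unknown depth limits every statement about a missing peak.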
